A study of Mus musculus with 24 samples.

Results

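The genes described here are 8 adhesion molecules of endothelial cells, the cells that line blood vessels: the selectins Sele and Selp, the immunoglobulin-type molecules Icam1, Icam2, Vcam1, Pecam1 and Madcam1, and the cadherin Cdh5. They were taken by gene symbol from a table of raw read counts, which held 8 of the 8 symbols among its 23420 entries. RNA had been extracted from whole cochleae of CBA/Sca mice aged 12 weeks and sequenced as 24 libraries, 3 from each of 8 groups named a, b and c. The groups crossed an exposure (1 h of noise at 100 dB SPL in the band from 6 to 12 kHz, or a sham exposure), a time (day, started at ZT3, or night, started at ZT15, where ZT counts hours from lights-on) and surgery (adrenalectomy, ADX, which removes the adrenal glands and with them the main source of glucocorticoid hormone, or a sham operation). Surgery of one kind or the other was thus common to all 8 groups. The design text puts collection 2 h after the noise, but ZT11 and ZT23 stand in the labels of the samples, and the sources used here do not settle the conflict. The labels do not say whether the libraries of a group come from separate animals, so p-values measure the spread between these samples, which may be technical.

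Leukocytes leave the blood in steps. Selectins on the endothelium catch passing leukocytes by their surface sugars and let them roll, ICAM and VCAM molecules bind leukocyte integrins and hold the cells in place, and the cells then cross at junctions that contain PECAM and VE-cadherin, the product of Cdh5. Sele, Vcam1 and Icam1 are known as genes that inflammatory cytokines switch on through the transcription factor NF-kB, and glucocorticoids are known to restrain such induction in cultured cells. Several of these molecules are not confined to vessels: Selp is stored in platelets and megakaryocytes, Icam2 and Pecam1 are also carried by leukocytes and platelets, and Vcam1 is found on macrophages and stromal cells of bone marrow. The cochlea lies in bone, and the capillaries of its stria vascularis form the blood-labyrinth barrier.

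Library totals ran from 18894996 to 36108962 counts. Levels are given as CPM, the count scaled to a common sequencing depth by library totals adjusted with TMM factors, with group values as mean ± SD of 3 libraries. Changes are log2 changes with their standard error (SE). Pituitary or cerebellar transcripts stood out in 3 libraries. The pituitary gene Gh reached 7590 CPM in night noise ADX a, and the cerebellar gene Cbln3 reached 33.3 CPM in night noise sham-operated b and 38.5 in library b of day sham-exposure sham-operated, against at most 61.4 for Gh and 13.8 for Cbln3 in the other 21 libraries. Skeletal muscle genes varied as well, with a lowest summed level of 9.33 CPM. It reached 76.4 CPM in day sham-exposure ADX, 75.9 in day sham-exposure sham-operated and 70.4 in night noise sham-operated mice. Endothelial identity was checked with 20 genes that endothelial cells express constitutively, and 20 of 20 passed the filter on low counts, with medians of 52.5 CPM for Kdr and 24.7 for Tek, both receptor kinases of endothelium. Their summed level lay between 647 and 784 CPM in each library. Blood and marrow cells were present too, with medians of 283 CPM for the platelet integrin gene Itga2b, 118 for the macrophage complement gene C1qa, 148 for the B-cell gene Cd79a and 1150 for the neutrophil gene S100a8. In such bulk samples, fewer cells of a type and less RNA per cell cannot be told apart.

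Of the 8 members 7 passed the filter and were tested, and their levels covered a wide range. Compared per kilobase of exon, Vcam1 was the most abundant, with a median of 36.3 CPM per kb over the 24 libraries. Its mean CPM per kb lay above that of 91.8% of the tested genes for which an exon length was at hand. The junction genes followed, Cdh5 with 17.6 and Pecam1 with 13.1 CPM per kb, and the ranges of these 3 genes (26.5 to 47.7, 15.6 to 21.2 and 11.6 to 15.5) did not overlap. Icam2, with 7.12 CPM per kb, Selp with 5.74 and Icam1 with 4.91 stood next, and their ranges over libraries overlapped. Sele, the selectin made by activated endothelium, was the lowest of the 7, with a median of 1.09 CPM per kb (range 0.623 to 1.54) and 47 to 125 reads per library. Madcam1, the addressin of gut venules, had 11 reads in all, was at 0 in 17 of 24 libraries and reached at most 3 reads in one, so it could not be tested. Vcam1 thus stood first and Sele last by this measure. The order between them depended on the exon lengths used. In CPM without that scaling the ranges of Pecam1 (72.0 to 96.7) and Cdh5 (65.4 to 89.2) overlapped. Icam2, with a median of 13.6 CPM, then lay below Selp (25.3) and Icam1 (21.4).

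**Figure D1:**
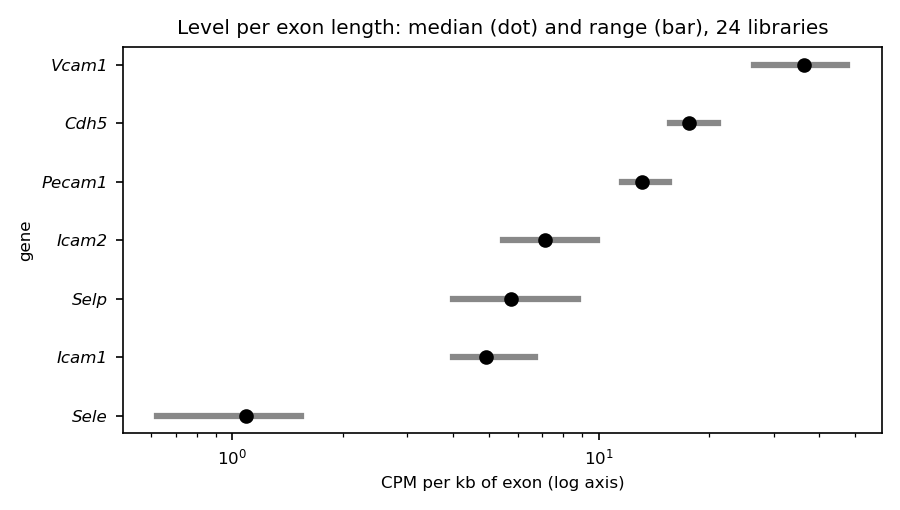
Level of the 7 tested adhesion genes in CPM per kilobase of exon on a log axis, where dots are medians and bars the range over 24 libraries. Vcam1 is highest (median 36.3), Sele lowest (median 1.09), and the bars of Icam2, Selp and Icam1 overlap.

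The 2 selectin genes stand near each other on chromosome 1 (GRCm38, GENCODE): Sele at 164048234 to 164057677 and Selp at 164115264 to 164150026. Icam1 lies on chromosome 9 (21015985 to 21028817), Vcam1 on chromosome 3 (116109949 to 116129688), Cdh5 on chromosome 8 (104101625 to 104144511) and Madcam1 on chromosome 10 (79664559 to 79668537). Icam2 (106377656 to 106388075) and Pecam1 (106654217 to 106750628) are both on chromosome 11. Annotated non-coding genes on the opposite strand overlap Selp, Icam1, Vcam1 and Cdh5, and the strand setting of the counting is not given in the sources used here, so reads of the overlaps may be shared. RefSeq (GRCm38.p6) promoter windows, from 250 bases before to 50 after the start site, were at hand for 4 of the 8 members. They are shown because cytokine-driven transcription of adhesion genes starts there and because the 4 genes span the range from Madcam1, almost without reads, to Selp. Capitals mark matches on either strand to NF-kB, to a shorter kB core (GGANNTTCC, a motif added after the sequences were seen), to AP-1 (TGANTCA) and to the TATA box (TATAAA).
Sele, chr1:164047984-164048283, plus strand: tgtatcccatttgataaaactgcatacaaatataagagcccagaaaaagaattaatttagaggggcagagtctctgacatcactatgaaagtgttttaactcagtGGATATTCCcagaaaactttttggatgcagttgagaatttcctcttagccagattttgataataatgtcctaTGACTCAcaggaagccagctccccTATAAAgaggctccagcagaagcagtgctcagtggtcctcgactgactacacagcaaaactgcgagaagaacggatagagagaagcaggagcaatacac
Selp, chr1:164115014-164115313, plus strand: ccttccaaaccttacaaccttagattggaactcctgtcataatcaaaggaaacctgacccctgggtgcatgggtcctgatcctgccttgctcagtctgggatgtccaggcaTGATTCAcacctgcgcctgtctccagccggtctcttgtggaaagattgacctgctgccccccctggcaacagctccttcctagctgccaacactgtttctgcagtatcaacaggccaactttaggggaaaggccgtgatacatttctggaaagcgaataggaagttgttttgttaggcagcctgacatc
Icam1, chr9:21015690-21015989, plus strand: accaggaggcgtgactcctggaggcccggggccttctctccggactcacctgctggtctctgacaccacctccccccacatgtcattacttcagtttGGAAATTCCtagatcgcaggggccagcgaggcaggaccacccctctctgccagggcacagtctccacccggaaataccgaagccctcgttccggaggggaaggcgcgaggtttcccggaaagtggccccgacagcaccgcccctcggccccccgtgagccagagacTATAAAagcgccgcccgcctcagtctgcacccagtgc
Madcam1, chr10:79664309-79664608, plus strand: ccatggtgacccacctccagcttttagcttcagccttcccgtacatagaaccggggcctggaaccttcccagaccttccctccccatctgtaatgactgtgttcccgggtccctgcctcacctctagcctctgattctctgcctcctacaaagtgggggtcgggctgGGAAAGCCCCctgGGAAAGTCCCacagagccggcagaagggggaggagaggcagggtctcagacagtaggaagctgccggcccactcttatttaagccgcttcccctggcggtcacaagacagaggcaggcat

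Counted from the start site at 0, the Sele window held the kB core GGATATTCC at -145, the AP-1 match TGACTCA at -73 and a TATA box at -49. Icam1 held the kB core GGAAATTCC at -153 and a TATA box at 13. For Icam1 the RefSeq start site lies upstream of the GENCODE start, 21015985, which is near the window's end at 21015989. Both matches therefore lie before the GENCODE start. Selp held the AP-1 match TGATTCA at -139, and these letters of the NF-kB, kB core and TATA motifs were not in its window. Madcam1 held a pair of NF-kB matches on the minus strand, printed here in plus-strand letters as GGAAAGCCCC at -83 and GGAAAGTCCC at -70, and the latter overlaps a match to the kB core. Among 32851 promoters of the same length, 4.51% held the NF-kB motif, 4.26% the kB core, 7.81% the AP-1 motif and 13.6% the TATA box. The steroid receptor motif ACANNNTGT (6.85% of promoters), the clock E-box CACGTG (7.15%) and the GATA motif AGATAA (11.2%) had no match in these 4 windows. A match of letters is a description and not a bound site.

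The first question was whether noise altered these genes, by day or by night, with or without adrenals. By day in ADX mice 2 of the 7 members rose and 0 fell (edgeR quasi-likelihood test, Benjamini-Hochberg adjusted p under 0.05), where 4.02% of 16607 genes were called. Those 2 were Sele and Vcam1, which capture and hold leukocytes on activated endothelium. In the other 3 noise comparisons 0 of 7 members were called: day in sham-operated mice (0.247% of all genes), night in sham-operated mice (0.717%) and night in ADX mice (0.500%).

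Sele measured 4.06, 3.55 and 3.98 CPM in day noise ADX a, b and c, and 2.05, 1.96 and 2.12 CPM in the libraries of day sham-exposure ADX. The noise libraries lay above the sham-exposure libraries without overlap, and the group means, 3.87 ± 0.273 and 2.05 ± 0.0806 CPM (SD, n = 3), were the highest and the lowest of the 8 groups. Here and below, libraries without overlap are a description, since the share of all genes that separate in this way was not counted. The log2 change was 0.91 (SE 0.225, adjusted p = 0.0270), a 1.88-fold rise. By day in sham-operated mice Sele measured 3.69, 3.20 and 2.35 CPM after noise and 3.52, 2.91 and 3.06 after sham exposure, which overlap (log2 change -0.03, SE 0.226). At night after noise the ADX libraries spread from 1.81 in c to 4.48 in a, the library with pituitary transcripts, around 2.82 to 2.88 CPM after sham exposure. In sham-operated mice at night Sele measured 3.84 ± 0.375 CPM after noise and 3.53 ± 0.417 after sham exposure.

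Vcam1 measured 324, 386 and 416 CPM in day noise ADX a, b and c against 251, 256 and 270 CPM in day sham-exposure ADX, again without overlap. The log2 change was 0.54 (SE 0.140, adjusted p = 0.0372), a 1.45-fold rise. In the sham-operated groups by day Vcam1 measured 343, 321 and 269 CPM after noise and 354, 359 and 298 after sham exposure, with overlap and with the means in the opposite order (log2 change -0.11, SE 0.140, adjusted p = 0.890). At night the log2 change was 0.19 (SE 0.139) in sham-operated and 0.28 (SE 0.140) in ADX mice, with overlap in both. Without the 3 libraries with pituitary or cerebellar transcripts the value in ADX mice was 0.108. For Sele the night value in ADX mice went from 0.123 to -0.255 in that fit. The night noise ADX libraries a, b and c stood at 381, 312 and 239 CPM, so library a, with pituitary transcripts, was the highest for Vcam1 as it was for Sele. Summed levels in a, b and c were 1520, 1050 and 917 CPM for glucocorticoid-induced genes and 946, 795 and 718 for macrophage markers. The part of either, or of the pituitary tissue, was not tested.

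**Figure D2:**
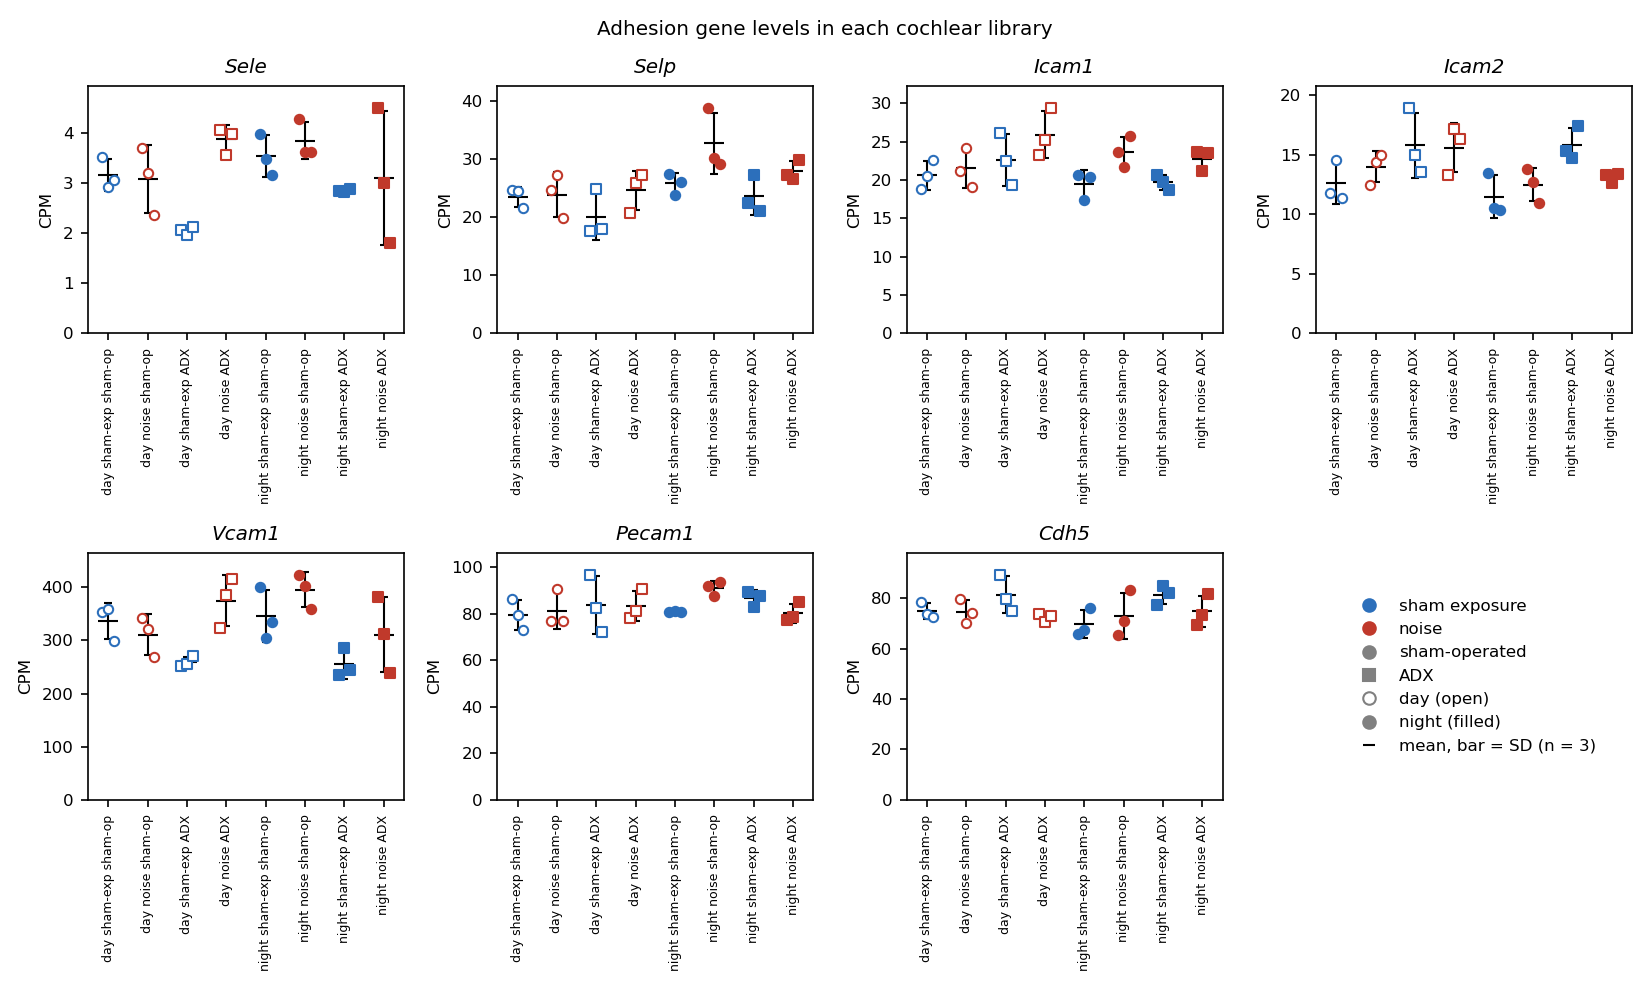
CPM of the 7 tested adhesion genes in each library (points), with group mean and SD (n = 3), for 8 groups on the x axis; color gives exposure, shape surgery and filling time. Sele and Vcam1 lie higher in day noise ADX than in day sham-exposure ADX without overlap, and their night noise ADX libraries spread widely.

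Whether the noise effect by day differed with surgery was tested as an interaction. It was 0.95 for Sele (SE 0.319, 95% interval 0.285 to 1.61, adjusted p = 0.187) and 0.65 for Vcam1 (SE 0.198, 95% interval 0.239 to 1.06, adjusted p = 0.170), so neither passed over all genes. In that interaction 0% of genes were called, while 2716 of 16607 had an unadjusted p under 0.05. DESeq2 called 158 genes there and voom 264, in both cases 0 of the 7 members. Without day noise ADX a 811 genes were called, and the Vcam1 interaction was 0.75 with adjusted p = 0.0400. The noise by surgery interaction at night (0% called, 1056 genes with an unadjusted p under 0.05, 4 by DESeq2), the noise by time interaction in sham-operated mice (0% called, 1213 such genes, 20 by DESeq2) and in ADX mice (0.00602% called) called 0 of 7 members. In the last of these Sele stood at -0.79 (SE 0.317, adjusted p = 0.388).

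The rise of Sele and Vcam1 by day in ADX mice came with other changes in the same libraries. Macrophage markers lay above 0 in 12 of 12 genes (median log2 change 0.377, 4 called, among them Aif1 at 0.65 and C1qb at 0.56), with a summed level of 864 to 1120 CPM after noise and 758 to 778 after sham exposure. Megakaryocyte and platelet markers did so in 12 of 12 (median 0.361, with Clec1b and Itga2b called; 1490 to 1860 against 1160 to 1540 CPM), neutrophil markers in 12 of 12 (median 0.339, 0 called; 7150 to 13000 against 6360 to 8670 CPM) and erythroid markers in 8 of 8 tested (median 0.517, 0 called; 4400 to 4870 against 3040 to 3760 CPM). Lymphoid markers differed from these: their summed level was 670 to 770 CPM after noise and 801 to 971 after sham exposure, without overlap. The median over all genes was -0.01. Glucocorticoid-induced genes separated the same libraries: 14 of 14 lay above 0 (median 0.963), 7 rose and 0 fell, and their summed level was 1290 to 1400 CPM after noise and 682 to 711 after sham exposure, without overlap. The 7 were Sgk1, Errfi1, Cdkn1a, Dusp1, Pdk4, Per1 and Ddit4. Several of them are known to be induced by other stress signals too. Fkbp5 (0.87, adjusted p = 0.117) and Tsc22d3 (0.44, adjusted p = 0.159) also lay above 0 and did not pass. The signal behind the changes of this list was not tested. Constitutive endothelial genes lay above 0 in 7 of 20, with a median of -0.110, and 2 of them fell, the endothelial phosphatase gene Ptprb (-0.49) and the lectin gene Clec14a (-0.63). With the macrophage marker mean as a covariate the change of Sele was 0.46 (adjusted p = 0.727) and that of Vcam1 0.09 (adjusted p = 0.919). With the endothelial mean as a covariate they were 0.71 (adjusted p = 0.211) and 0.43 (adjusted p = 0.234). Over all genes the calls went from 667 to 52 and to 135 in these fits. With the lymphoid mean as a covariate both genes still passed. The marker means move with the groups themselves, and their part in the result was not tested. The calls also depended on single libraries: both genes passed without day noise ADX a and failed without any 1 of the other 5 libraries, with adjusted p up to 0.0997 for Sele and 0.168 for Vcam1, both without day noise ADX c, while the log2 change stayed between 0.88 and 0.97 for Sele and between 0.46 and 0.64 for Vcam1.

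For Selp, Icam1, Pecam1, Icam2 and Cdh5 no noise comparison passed. Selp, at night in sham-operated mice, measured 38.7, 30.2 and 29.2 CPM after noise and 27.5, 23.9 and 26.1 after sham exposure. These libraries did not overlap, but the log2 change of 0.34 (SE 0.141) had an adjusted p of 0.488. Icam1, the integrin ligand that inflammatory signals induce, measured 23.6, 21.7 and 25.7 CPM after noise and 20.7, 17.4 and 20.4 after sham exposure in the same groups, a log2 change of 0.28 (SE 0.114, adjusted p = 0.481). Icam2 in ADX mice at night measured 13.1 ± 0.465 CPM after noise and 15.8 ± 1.42 after sham exposure (log2 change -0.27, SE 0.137, adjusted p = 0.530). Cdh5 by day in ADX mice stood at 72.5 ± 1.56 after noise and 81.3 ± 7.31 after sham exposure (log2 change -0.17, SE 0.083, adjusted p = 0.233), and the noise libraries lay below without overlap. Pecam1 moved by 0.17 or less on the log2 scale in each noise comparison. Its largest change was at night in sham-operated mice (0.17, SE 0.086, adjusted p = 0.614), where the noise libraries lay above without overlap.

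Pooled over time and surgery, 4.81% of genes were called for noise and 0 of 7 members. The 3 members nearest the threshold lay above 0: Icam1 at 0.18 (SE 0.057, adjusted p = 0.0699), Vcam1 at 0.22 (SE 0.070, adjusted p = 0.0734) and Selp at 0.22 (SE 0.072, adjusted p = 0.0789). Icam1 and Selp had a value above 0 in 4 of 4 strata and Vcam1 in 3 of 4. Here and below, such counts are a description and no separate support, since the pooled value averages the same strata. The share of all genes with such signs was not counted. Sele stood at 0.28 (SE 0.111, adjusted p = 0.168), with values from -0.03 by day in sham-operated mice to 0.91 by day in ADX mice. With the DESeq2 Wald test Selp, Icam1 and Vcam1 passed. The 95% intervals of the others held 0: Pecam1 -0.07 to 0.11, Cdh5 -0.14 to 0.03 and Icam2 -0.15 to 0.14.

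**Figure D3:**
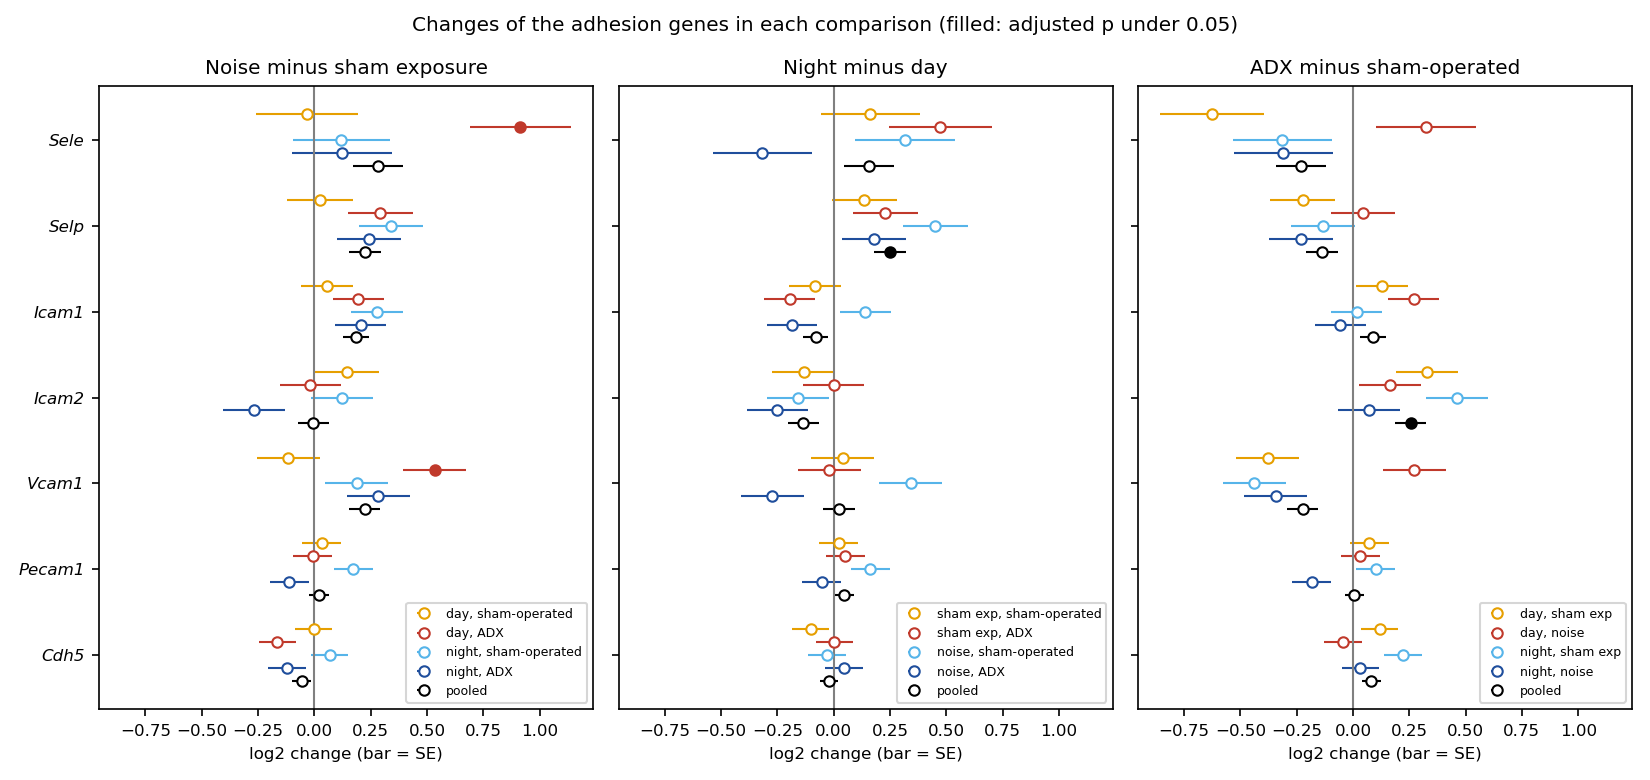
Log2 change with SE of each tested adhesion gene for noise minus sham exposure, night minus day and ADX minus sham-operated, in 4 strata and pooled; filled points had an adjusted p under 0.05. Filled are 4 points: Sele and Vcam1 for noise by day in ADX mice, Selp for the pooled time comparison and Icam2 for the pooled surgery comparison.

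The genes around this pathway were read in the same pooled noise comparison, where the median over all genes was -0.000379. Among chemokines of the vessel wall, which draw leukocytes to the endothelium, 4 of 12 tested rose and 0 fell: Ccl7 by 3.46, Ccl2 by 2.61, Cxcl1 by 1.28 and Cxcl16 by 0.21. Among the cytokines that induce adhesion genes and their receptors 4 of 16 rose and 0 fell, including the oncostatin receptor Osmr by 0.40 and the TNF receptor Tnfrsf1a by 0.14, whereas Tnf (0.06, adjusted p = 0.825) and Il1b (0.24, adjusted p = 0.309) did not pass. Of 20 NF-kB pathway genes 3 rose: Cebpb by 0.84, the inhibitor Nfkbia by 0.24 and the subunit gene Relb by 0.19, and the other 17 did not pass. Among endothelial junction and diapedesis genes 3 of 16 rose and 1 fell, led by the nectin-type adhesion molecules Pvr (1.07, adjusted p = 8.71e-10) and Pvrl2 (0.35, adjusted p = 8.11e-06). Pvr was called in each of the 4 noise comparisons, with log2 changes from 0.88 to 1.17. Leukocyte ligands and integrins moved little: 1 of 14 rose (Itgb1, 0.10) and 1 fell (Glg1, -0.11), while Selplg, the ligand of P-selectin, stood at 0.02 and Itgb2, the shared chain of the ICAM-binding integrins, at 0.05. Of 9 tested genes that build selectin ligand sugars 0 were called (median -0.0553).

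Of 20 constitutive endothelial genes 1 was called for noise pooled, the tight junction gene Cldn5, which fell by 0.22, and of 10 venular and Weibel-Palade body genes Procr, the endothelial protein C receptor, rose by 0.41. Vwf, stored with P-selectin in Weibel-Palade bodies and in platelets, stood at 0.16 (adjusted p = 0.149). Barrier genes went both ways: the glucose transporter gene Slc2a1 (0.17) and the lipid transporter gene Mfsd2a (0.23) rose, while Tjp1 (-0.22) and Slco1a4 (-0.23) fell. Klf4, a shear-responsive endothelial factor that other cells also express, rose by 0.64, and Klf2, its close relative, stood at 0.03 (adjusted p = 0.857). Of 10 other adhesion family genes 0 were called in the pooled noise comparison, and Icam4, the red-cell ICAM, rose by day in ADX mice (0.56, adjusted p = 0.0430).

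Night was then compared with day. Pooled over noise and surgery 1 of 7 members was higher at night and 0 lower, where 6.01% of genes were called. That member was Selp, with a log2 difference of 0.25 (SE 0.072, adjusted p = 0.0422), and its night mean lay above its day mean in 4 of 4 strata. The widest difference was after noise in sham-operated mice, with 38.7, 30.2 and 29.2 CPM at night and 24.7, 27.3 and 19.8 by day, which did not overlap (log2 difference 0.45, SE 0.143, adjusted p = 0.128). After noise in ADX mice Selp measured 27.2, 26.5 and 29.9 CPM at night and 20.8, 25.9 and 27.2 by day, which overlap. Without noise the means were 25.8 ± 1.78 at night and 23.5 ± 1.77 by day in sham-operated mice, and 23.6 ± 3.18 and 20.1 ± 4.02 in ADX mice.

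Platelet markers moved the same way as Selp: 12 of 12 lay above 0 in the pooled time comparison (median 0.158, 0 called), against a median of -0.00171 over all genes. Their summed level was 1280 to 2470 CPM over the night groups and 1160 to 1870 over the day groups, and Itga2b stood at 0.16 (adjusted p = 0.131) and Pf4 at 0.08 (adjusted p = 0.575). With the platelet marker mean as a covariate the Selp difference was 0.10 (adjusted p = 0.132), and the part of these cells was not tested. Vwf stood at 0.16 (adjusted p = 0.126), and the endothelial genes Eng (0.13) and Edn1 (0.53), which encode the coreceptor endoglin and endothelin, were higher at night. Without the 3 libraries with pituitary or cerebellar transcripts the difference of Selp was 0.28 with adjusted p = 0.0737, and leaving out 1 library at a time it passed in 9 of 24 fits, with adjusted p from 0.0138 without day sham-exposure ADX b to 0.0815 without day sham-exposure sham-operated c.

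Within strata 0 of 7 members differed between night and day: in sham-exposure sham-operated mice (0.265% of genes called), sham-exposure ADX mice (0.0181%), noise-exposed sham-operated mice (1.12%) and noise-exposed ADX mice (0.620%). The last share stands for 103 genes, and it was 1313 genes without day noise ADX a and 16 without day noise ADX b. Sele in sham-exposure ADX mice measured 2.83, 2.82 and 2.88 CPM at night and 2.05, 1.96 and 2.12 by day, without overlap, but its log2 difference of 0.47 (SE 0.229) had an adjusted p of 0.800. Vcam1 after noise in sham-operated mice measured 423, 402 and 359 CPM at night and 343, 321 and 269 by day, also without overlap (0.34, SE 0.140, adjusted p = 0.250). In ADX mice after noise Vcam1 stood at -0.27 and Sele at -0.32 for night minus day, and neither passed. The time by surgery interaction without noise called 0 of 7 members and 0.00602% of genes. The clock gene list had 10 of 16 members called in the pooled time comparison, 5 in each direction.

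Surgery was compared last. Pooled over time and noise 1 of 7 members was higher in ADX mice and 0 lower, where 3.20% of genes were called. It was Icam2, the ICAM that resting endothelium, lymphocytes and platelets carry, with a log2 difference of 0.26 (SE 0.069, adjusted p = 0.0430) and a higher mean in ADX mice in 4 of 4 strata. At night without noise Icam2 measured 15.3, 14.7 and 17.4 CPM in ADX mice and 13.5, 10.5 and 10.4 in sham-operated mice, without overlap (0.46, SE 0.137, adjusted p = 0.0913). By day without noise the ADX libraries ran from 13.6 to 18.9 CPM and the sham-operated ones from 11.4 to 14.6 CPM, which overlap. After noise the means were closer, 15.6 ± 2.06 and 14.0 ± 1.30 by day and 13.1 ± 0.465 and 12.5 ± 1.41 at night.

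Lymphoid markers were higher in ADX mice as well: 10 of 12 rose and 1, Cd3e, fell (median 0.443, against -0.000143 over all genes), among them the recombination genes Rag1 (0.60) and Rag2 (0.67) of developing lymphocytes and Cd79a (0.36). Their summed level was 623 to 1010 CPM over the ADX groups and 440 to 789 over the sham-operated groups. Constitutive endothelial genes lay above 0 in 15 of 20 (median 0.0900, 0 called). With the lymphoid mean as a covariate, the Icam2 difference was 0.01 (adjusted p = 0.996), while it was 0.25 with the endothelial mean (adjusted p = 0.173), and the part of these cells was not tested. Over all genes the calls went from 532 to 0 and to 102 in these fits. The call was lost with the letter of the library as a block (adjusted p = 0.0578), and it held in 8 of 24 fits that left out 1 library, with adjusted p from 0.0193 without day noise ADX a to 0.0904 without day sham-exposure ADX a.

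Vcam1 had the opposite sign, a pooled log2 difference of -0.22 (SE 0.070) that did not pass (adjusted p = 0.0886). At night without noise it measured 235, 286 and 245 CPM in ADX mice and 400, 304 and 335 in sham-operated mice, and by day 251, 256 and 270 against 354, 359 and 298. In both pairs the ADX libraries lay below without overlap (adjusted p = 0.120 and 0.291). After day noise the order turned, 375 ± 47.1 CPM in ADX against 311 ± 38.0 in sham-operated mice, with overlap. After night noise the ADX mean was again the lower, 311 ± 71.0 against 395 ± 32.9 CPM, with overlap (log2 difference -0.34, SE 0.140, adjusted p = 0.523). Sele had the same pattern: by day without noise the ADX libraries (1.96 to 2.12 CPM) lay below the sham-operated ones (2.91 to 3.52 CPM; log2 difference -0.62, SE 0.231, adjusted p = 0.291), at night without noise too (2.82 to 2.88 against 3.15 to 3.98), after day noise the difference was 0.32 (adjusted p = 0.536), and after night noise it was -0.31 (adjusted p = 0.727), with 3.10 ± 1.33 against 3.84 ± 0.375 CPM. Without the 3 libraries with pituitary or cerebellar transcripts the differences after night noise were -0.506 for Vcam1 and -0.729 for Sele, and neither passed. The contrasts of ADX without noise by day and of noise by day in ADX mice share the day sham-exposure ADX libraries, so a low value there enters both. Glucocorticoid-induced genes had 7 of 14 members lower in ADX mice and 0 higher in the pooled comparison (median -0.374), led by Fkbp5 (-0.90) and with Tsc22d3 at -0.40. By day without noise their summed level was 682 to 711 CPM in ADX and 905 to 1010 in sham-operated mice. At night without noise it was 682 to 782 against 1030 to 1210. After day noise the ADX libraries were not lower, at 1290 to 1400 against 1060 to 1270. After night noise they spread from 917 to 1520, against 1490 to 1640.

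By stratum, 0 of 7 members were called for surgery: 0.0422% of genes by day without noise, 1.58% at night without noise, and 0% after noise both by day (1949 genes with an unadjusted p under 0.05) and at night (1420 such genes). These shares moved with the tool and the libraries: DESeq2 called 179 genes by day without noise in place of 7, 2 after noise by day and 15 after noise at night. Without 1 library the counts ran from 0 to 30 by day without noise and from 0 to 196 at night without noise, where all 6 such fits gave fewer than the 263 of all 24 libraries. After noise 760 genes were called by day without day noise ADX a and 162 at night without night noise ADX a, the library with pituitary transcripts. Cdh5 at night without noise measured 77.3, 84.7 and 82.2 CPM in ADX mice and 65.9, 67.3 and 76.2 in sham-operated mice, without overlap (0.22, SE 0.083, adjusted p = 0.193). Pecam1 stood at 0.01 (SE 0.043) in the pooled comparison, with a 95% interval of -0.08 to 0.10. At night without noise its ADX libraries lay above without overlap (0.10, adjusted p = 0.639). After night noise they lay below without overlap (-0.18, adjusted p = 0.582).

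The members did not vary as 1 group over the 24 libraries. Correlations of log2 CPM are given as descriptions, since libraries of a group share their condition and all values share normalisation. Sele and Vcam1 went together (Pearson r 0.830, Spearman rho 0.842, and r 0.751 for deviations from the group means). Cdh5 ran against both (r -0.584 with Sele and -0.609 with Vcam1), and the neighbouring genes Sele and Selp had r 0.464, with 0.0806 for the deviations. Selp followed the megakaryocyte and platelet markers (r 0.899, rho 0.870, deviations 0.898, and 0.817 without the 2 libraries farthest from the median of the marker mean). Icam2 followed the lymphoid markers (r 0.786, rho 0.799, deviations 0.700). It ran as strongly against the blood-labyrinth and brain-type barrier genes (r -0.763, rho -0.845, deviations -0.722). With the NF-kB pathway genes Icam2 had r 0.567 and 0.746 for the deviations. Vcam1 followed the macrophage markers (r 0.854, rho 0.876, deviations 0.888) and the glucocorticoid-induced genes (r 0.860, deviations 0.646). Vcam1 was as close to the inducing cytokines and their receptors (r 0.860, rho 0.879, deviations 0.691). Its r was 0.761 with erythroid, 0.755 with platelet and 0.703 with neutrophil markers. For Sele the glucocorticoid-induced genes gave r 0.812 (rho 0.861), the macrophage markers 0.700, the erythroid markers 0.683 and the inducing cytokines and their receptors 0.660. For Icam1 the vessel-wall chemokines gave 0.720 and the NF-kB pathway genes 0.709. With the constitutive endothelial mean the correlation was 0.685 for Cdh5, 0.594 for Pecam1, 0.292 for Icam2, -0.438 for Sele and -0.452 for Vcam1.

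**Figure D4:**
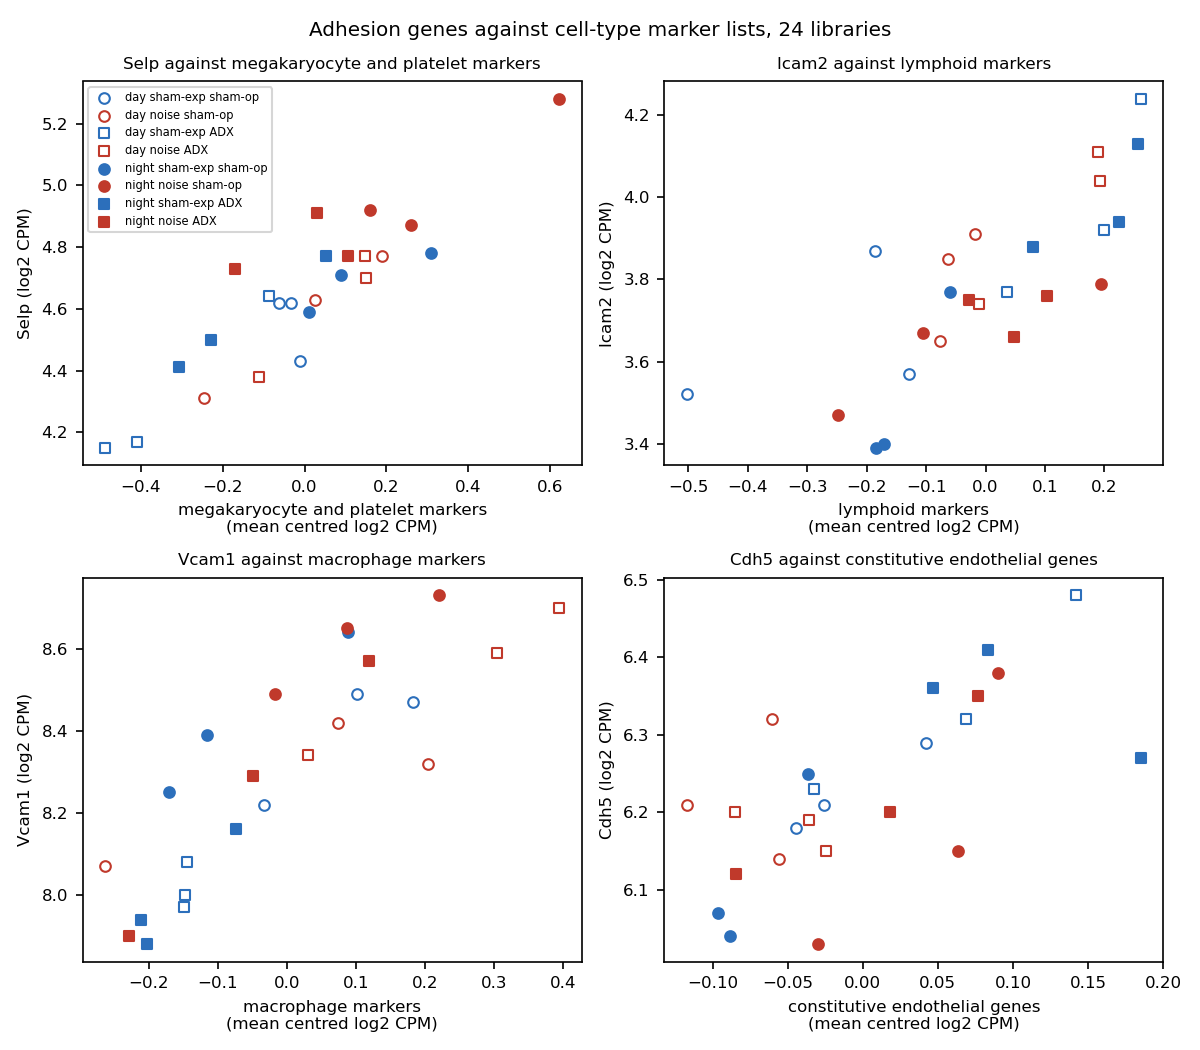
Log2 CPM of Selp, Icam2, Vcam1 and Cdh5 (y axes) against the mean centred log2 CPM of 4 marker lists (x axes), 1 point per library, 24 in all; color gives exposure, shape surgery and filling time. Pearson r is 0.899 for Selp with platelet markers, 0.786 for Icam2 with lymphoid markers, 0.854 for Vcam1 with macrophage markers and 0.685 for Cdh5 with constitutive endothelial genes.

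Single genes most like each member were sought among 14310 genes over the same 24 libraries. For Selp they were Ly6g6f (r 0.930) and Rasa3 (0.929), and for deviations from the group means Alox12, the platelet-type lipoxygenase (0.932), and Fli1 (0.913). For Icam2 they were Unc93b1 (0.929) and Rhoh, a GTPase of blood cells (0.928), and for deviations Ccm2 (0.891) and Rhoh (0.890). Vcam1 was most like Dpep1 (0.941) and the lysosomal protease gene Ctsd (0.922), and in deviations like Fcna, a ficolin of macrophages (0.943), and B4galnt1 (0.909). Sele was most like Smox (0.878) and Bcl2l1 (0.854), and in deviations like Gadd45g (0.866) and Pim3 (0.851). The closest genes to Icam1 were less alike, Rpa3 at 0.702 and Midn at 0.695, with Evpl (0.745) and Plscr1 (0.738) in deviations. Pecam1 was nearest to Tor2a (0.756) and the endothelial gene Mmrn2 (0.692), and in deviations to Vav2 (0.815) and Tor2a (0.810). Cdh5 was nearest to Pltp (0.816) and Islr (0.807), and in deviations to Pcolce (0.859) and Dock6 (0.853).

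**Figure D5:**
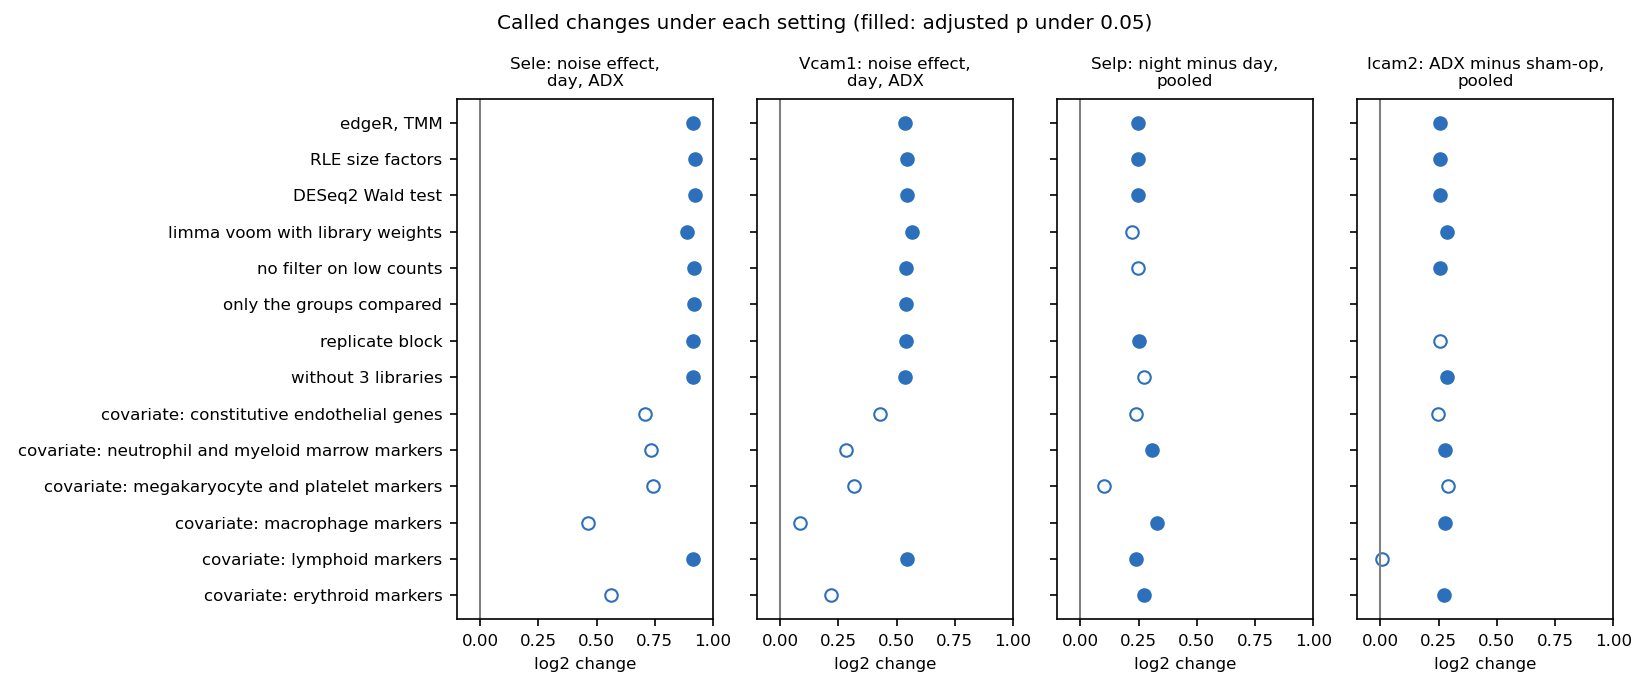
Log2 change (x axis) of the 4 called results under each processing setting (y axis); filled points had an adjusted p under 0.05. Sele and Vcam1 stay filled under the other tools and scalings and open up with 5 of 6 marker covariates, Selp falls to 0.10 with platelet markers and Icam2 to 0.01 with lymphoid markers.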

How the data were processed

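Whole-cochlea RNA was sequenced as 50-base single reads from libraries of a stranded mRNA kit, made from 300 ng of RNA and loaded in pools of 6, per the labels' protocols. The authors deposited raw counts of reads per gene symbol; per the submitters' processing notes the tools were TopHat2 2.0.11 and HTSeq 0.6p1 with build mm10, and the annotation and strand setting are not given in the sources used here. The table held 23420 entries, of which 27 had date-like names (0.214% of counts), kept as unidentified. No library repeated another (chi-square per gene of at least 6.1 over 24 pairs within groups, among genes with a count of at least 20).

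The main analysis used edgeR 4.0.16 (R 4.3.3): filterByExpr on the 8 groups (16607 genes), TMM factors (0.974 to 1.02), 1 coefficient per group, robust quasi-likelihood F-tests of 20 contrasts, two-sided, with Benjamini-Hochberg adjustment over all genes tested and a threshold of 0.05. Biological variation had a common coefficient of 0.0991. Pooled contrasts average 4 strata. Log2 CPM used a prior count of 2. Exon lengths and positions came from GENCODE vM21. The scripts were tested on simulated counts. The alternatives were RLE factors, the DESeq2 1.42.0 Wald test, limma 3.58.1 voom with library weights, no filter, only the groups compared, a replicate block, leaving out each library or 3 libraries, and marker means as covariates, of which the platelet, macrophage, lymphoid and erythroid ones were added after seeing the data. Figures were drawn with matplotlib.

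The 8 members and the 25 gene lists (316 of 317 entries matched, 5 by an older symbol) were chosen with earlier results of these data known. Members are described in every comparison. From a list at most 4 genes were to be named, the 2 with the smallest adjusted p and 2 well known members; further called genes were named after their values were seen. Genes like a member are the 2 with the highest Pearson correlation among genes whose log2 CPM averaged 1 or more.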

Additional observations from a re-analysis of the deposited data

How the results depend on the processing

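Of 140 member results 136 were not called. Over 3227 alternative values 3136 kept their side of the threshold, 60 lost significance, 31 gained it and 0 of the called ones changed sign. Among values not called 243 changed sign. For noise by day in ADX mice the 2 member calls became 0 with the endothelial, neutrophil, platelet, macrophage or erythroid covariate, and 0 to 2 without 1 library. For pooled noise the 0 member calls became 3 with DESeq2, 1 with voom, 1 with the endothelial and 2 with the neutrophil covariate, and 0 to 3 without 1 library. For pooled night minus day the 1 call became 0 with voom, no filter, without the 3 libraries, and with the endothelial or platelet covariate, and 0 to 1 without 1 library. For ADX at night without noise the 0 calls became 2 with DESeq2 and 1 with voom, the neutrophil or the macrophage covariate. For pooled ADX the 1 call became 2 with DESeq2 and the neutrophil, macrophage or erythroid covariate, 0 with the endothelial, platelet or lymphoid covariate, and 0 to 3 without 1 library. The day noise by surgery interaction gave 0 to 1 without 1 library. The causes were not tested. The count over all genes often moved by more than 1.5 times, and is given as the main count, its range over the other settings with all or 21 libraries, and its range without 1 library. Noise gave 41, 30 to 123 and 23 to 55 by day in sham-operated mice, 667, 52 to 1405 and 144 to 2254 by day in ADX mice, 119, 82 to 254 and 78 to 118 at night in sham-operated mice, 83, 35 to 182 and 37 to 134 at night in ADX mice, and 798, 311 to 1117 and 618 to 1145 pooled. Night minus day gave 44, 13 to 410 and 6 to 105 in sham-exposure sham-operated mice (22 with the replicate block), 3, 0 to 38 and 0 to 3 in sham-exposure ADX mice, 186, 31 to 494 and 53 to 135 after noise in sham-operated mice, 103, 0 to 433 and 16 to 1313 after noise in ADX mice, and 998, 669 to 1463 and 698 to 1238 pooled. ADX gave 7, 0 to 179 and 0 to 30 by day without noise, 0, 0 to 2 and 0 to 760 after day noise, 263, 0 to 1242 and 0 to 196 at night without noise, 0, 0 to 33 and 0 to 162 after night noise, and 532, 0 to 948 and 304 to 898 pooled. The interactions gave 0, 0 to 264 and 0 to 811 (noise by surgery, day), 0, 0 to 4 and 0 (night), 0, 0 to 20 and 0 (noise by time, sham-operated), 1, 0 to 24 and 0 to 36 (ADX), and 1, 1 to 72 and 1 to 2 (time by surgery). The highest counts without 1 library came without day noise ADX a for 7 of these comparisons, among them 2254, 1313, 811 and 760.

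With the replicate block, which joins libraries of the same letter, the pooled ADX count was 0 in place of 1, and the other 19 comparisons kept their member counts (2 for noise by day in ADX mice and 1 for pooled time). The letters did not pair the libraries: 26 of 84 same-letter pairs correlated above 0.1 (mean 0.00987), against 49 of 168 other-letter pairs (mean -0.00506). Of 24 libraries 10 correlated best with their own letter among the 3 letters.

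Depth limits Sele, at 47 to 125 reads per library, and Madcam1, with 11 reads in all.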
